A study of Mus musculus with 4 samples.

Results

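The 10 genes described here are early neural and neural plate factors, namely the transcription factors Sox1, Sox3, Sox11, Pax6, Hes5, Zic1, Six3, Hesx1 and Neurog2 and the intermediate filament gene Nes, which encodes nestin. They were chosen by gene symbol, and all 10 were found among the 24347 gene rows of the expression tables. RNA-seq was carried out on embryoid bodies (EBs), the cell aggregates that mouse embryonic stem cells form in suspension, after 3 days of culture in medium with 15% serum from which the self-renewal cytokine LIF had been withdrawn. The study deposited 2 WT samples and 2 samples in which the promoter of Gm11549, the locus that encodes the micropeptide NEMEP, had been knocked out (promoter KO). All 4 samples had the strain background 129/Ola, were labelled as mesendoderm cells derived from embryonic stem cells, and received no other treatment. The KO cells were made with CRISPR/Cas9, and the samples of a genotype were described as biologically independent. The sources used here do not say whether the 2 promoter KO samples came from separate cell lines, so that the p-values given below measure the spread between these samples and may not cover that between lines.

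In the embryo, epiblast cells that do not enter the primitive streak and receive little Nodal and BMP signal become neural ectoderm. SoxB1 factors such as Sox1, Sox2 and Sox3 mark and maintain neural progenitors, Pax6, Six3, Hesx1 and Zic1 act in regions of the neural plate, Hes5 is a target of Notch signalling, and Neurog2 promotes the formation of neurons. The comparison asks whether cells with low expression of mesendoderm genes gained expression of these neural genes.

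Expression is given as FPKM, the number of fragments scaled by transcript length and library size, and pairs of values are in the order of sample 1 and sample 2 of a genotype. Genes under 1 FPKM in 3 or more samples were not tested, which left 11941 genes. Fold changes are differences of the mean log2(FPKM + 1) between promoter KO and WT, a scale that understates the change of genes with low expression, and were tested with limma. A gene was called at a Benjamini-Hochberg adjusted p below 0.05 over all genes tested. Of the 10 neuroectoderm genes, 3 passed the filter (Sox3, Sox11 and Nes) and 7 did not (Sox1, Pax6, Hes5, Zic1, Six3, Hesx1 and Neurog2). In EBs, fewer cells of a type and less RNA per cell cannot be told apart.

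Neural expression in promoter KO was mixed. Sox3 was the 1 neuroectoderm gene that rose, by a call close to the threshold that was lost when any 1 sample was left out. It already had 35.9 and 29.0 FPKM in WT, where Sox1 had 0.0523 and 0.0942 FPKM. Whether the rise of Sox3 came from neural cells was not tested. Sox1, Pax6, Hes5 and Zic1 had higher values in both promoter KO samples but stayed below 1 FPKM and were not tested. Nes, Sox11 and Six3 had lower values in both promoter KO samples, without a call. Hesx1 overlapped between the genotypes, and Neurog2, slightly higher in both promoter KO samples, rested on 2 fragments or fewer per sample.

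The targeted gene and the mesendoderm genes were examined first as a check of the labels. Gm11549 had 0.750 and 0.522 FPKM in WT against 0 and 0.0659 FPKM in promoter KO. The promoter KO samples were thus below both WT samples, but Gm11549 was below the filter and was not tested. All 10 genes of a mesendoderm list (T, Eomes, Mixl1, Gsc, Foxa2, Mesp1, Lhx1, Evx1, Gata6 and Sox17) were lower in both promoter KO samples than in either WT sample, and 6 of them were called. Of all genes tested, 32.4% were lower without overlap and 1.89% were called lower. Mesp1 had 27.0 and 101 FPKM in WT against 0.759 and 4.24 in promoter KO. The log2 fold change was -4.14 (standard error 0.71), and the adjusted p was 0.0467 in limma. The log2 fold changes of the other 5 called genes were -3.04 for Lhx1, -2.74 for Mixl1, -2.59 for Evx1, -2.33 for Gsc and -1.65 for Gata6. Of the 8 other settings with genotype as the only term, Mesp1 passed in 1 (adjusted p from 0.0499 to 0.147), Evx1 in 0 (0.051 to 0.147), Lhx1 in 6 and Mixl1, Gsc and Gata6 in 5 each. The summed level of the list was 803 and 1041 FPKM in WT against 159 and 330 FPKM in promoter KO, lowest in promoter KO 1, and its median log2 fold change was -2.26. T was the most abundant gene of the list, and none of its genes was at 0 in all samples.

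The 4 libraries were not evenly spaced. Between WT 1 and promoter KO 2, 2.00% of the tested genes differed by more than 2-fold, against 6.62% between WT 2 and promoter KO 1. Within the genotypes the share was 1.06% in WT and 0.762% in promoter KO. The depth of each library was estimated from the steps between low values, which gave about 25400000 fragments for WT 1 and 22500000 for WT 2, against 22100000 for promoter KO 1 and 20500000 for promoter KO 2. At these depths, between 72.7% and 76.3% of the low values used for the estimate lay within 0.1 of a whole number of fragments. Fragment numbers and 95% Poisson intervals below follow from this estimate and the longest annotated transcript, are approximate, and cover counting error only.

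Sox3, a SoxB1 factor, rose in promoter KO. Sox3 (chrX:60891366-60893430, minus strand, GRCm38) had 35.9 and 29.0 FPKM in WT against 56.4 and 50.0 FPKM in promoter KO. Both promoter KO samples were above both WT samples, and the gap between the groups was wider than the gap within either. The log2 fold change was 0.70 with a standard error of 0.13 (95% interval 0.38 to 1.02) and an adjusted p of 0.0493 in limma. Sox3 was the only one of the 3 tested neuroectoderm genes called higher, beside 1.68% of all genes tested. The call lay close to the threshold. The adjusted p ranged from 0.0512 to 0.146 over 8 other settings with genotype as the only term, a replicate block not included, and passed in 0 of these 8. Without WT 1 it was 0.0626, without WT 2 0.227, without promoter KO 1 0.202 and without promoter KO 2 0.0626, with log2 fold changes between 0.55 and 0.85.

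Sox1, an early marker of neural ectoderm, was near the lower end of detection in WT. Sox1 (chr8:12395295-12400126, plus strand) had 0.0523 and 0.0942 FPKM in WT against 0.357 and 0.269 FPKM in promoter KO. Here too, the promoter KO samples were above both WT samples. These levels correspond to about 6, 10, 36 and 25 fragments. The mean was 4.28 times as high in promoter KO as in WT, while the log2(FPKM + 1) difference was only 0.29. The counting intervals of WT 2 (up to 0.178 FPKM) and promoter KO 2 (from 0.172 FPKM) met. Sox1 remained below 1 FPKM in all 4 samples, and its level in promoter KO was a small fraction of that of Sox3 on the same scale.

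Sox11, a SoxC factor expressed in neural precursors and in other embryonic tissues, did not follow Sox3. Sox11 (chr12:27334264-27342574, minus strand) had 23.4 and 19.2 FPKM in WT against 16.2 and 18.6 FPKM in promoter KO. The promoter KO samples were both lower, but WT 2 and promoter KO 2 lay closer to each other than either did to the other sample of its genotype. Its log2 fold change was -0.28 with a standard error of 0.14 (95% interval -0.61 to 0.06) and an adjusted p of 0.226 in limma. The log2 fold change was -0.14 without WT 1, -0.41 without WT 2, -0.18 without promoter KO 1 and -0.37 without promoter KO 2, with 0 calls (adjusted p from 0.205 to 0.596 in limma).

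**Figure D1:**
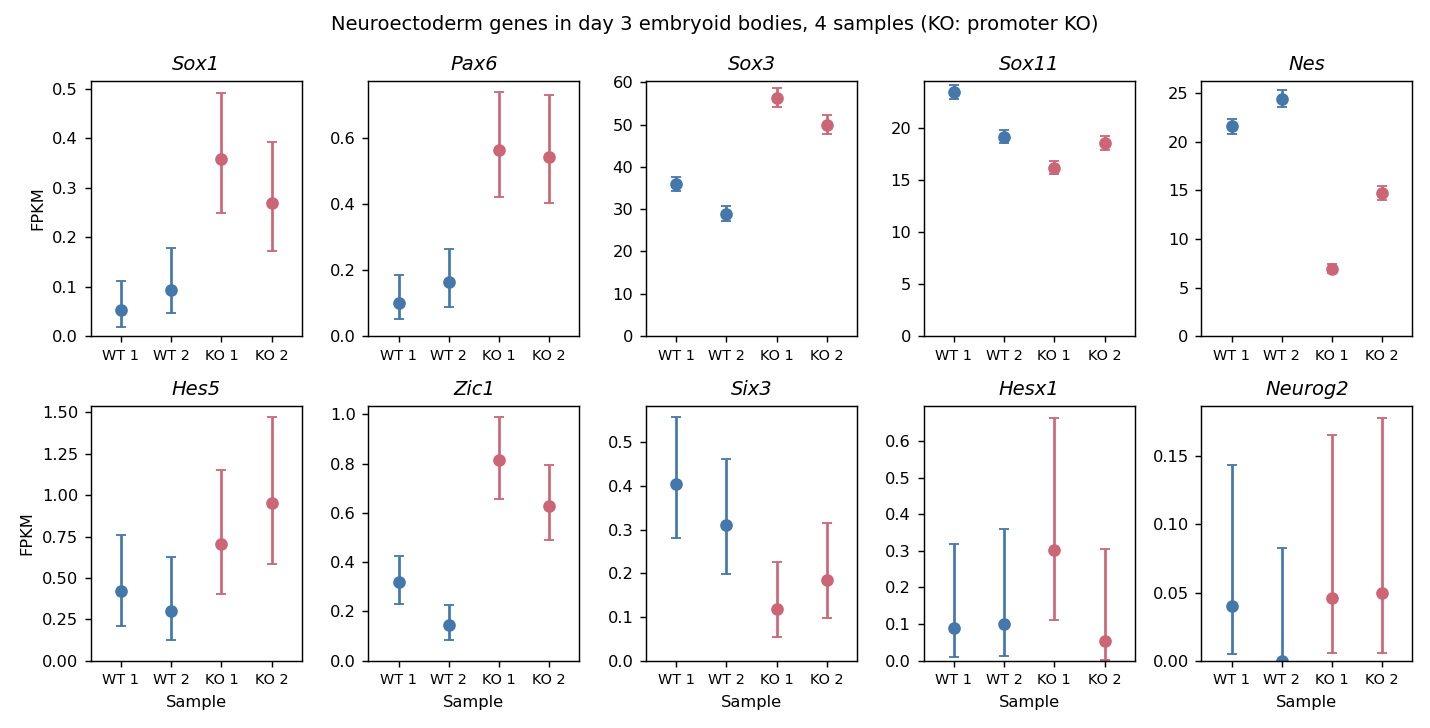
Expression in FPKM (vertical axes, each from 0) of the 10 neuroectoderm genes in the 2 WT (blue) and 2 promoter KO (red) samples; each point is 1 sample and the bars are approximate 95% Poisson intervals for counting error only. Sox3 sits at 29.0 and 35.9 FPKM in WT and at 50.0 and 56.4 in promoter KO, Nes is lower in both promoter KO samples, and 7 of the genes stay below 1 FPKM in every sample.

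Nes, the neural progenitor filament that is also expressed in mesodermal and other progenitors, was the tested gene with the largest difference, and it was lower in promoter KO. Nes (chr3:87971078-87980451, plus strand) had 21.6 and 24.5 FPKM in WT against 6.94 and 14.7 FPKM in promoter KO. The WT samples were both higher, and the promoter KO samples differed from each other more than the WT samples did. Its log2 fold change was -1.10 with a standard error of 0.31 (95% interval -1.85 to -0.35), and the adjusted p of 0.0831 in limma did not pass. In limma, 0 of the 3 tested genes were called lower, beside 1.89% of all genes tested, and 1 of the 3 (Nes) was lower at an unadjusted p below 0.05, beside 15.6% of all genes tested. By a second rule, a fold change past 2 with an unadjusted p below 0.05, Nes was again the 1 gene counted lower and 0 were counted higher, against 1.63% and 1.40% of all genes tested. The size of the difference in Nes depended on the promoter KO samples, with a log2 fold change of -1.60 without promoter KO 2 (adjusted p = 0.0312, which passed) and -0.61 without promoter KO 1 (adjusted p = 0.182). Without WT 1 and without WT 2 it was -1.19 and -1.02, with an adjusted p of 0.163 and 0.326 in limma. Without promoter KO 1 the difference in Nes was below the 2-fold limit of the second rule. Without WT 2 it lay near that limit. Over the same 8 settings as for Sox3, again without the replicate block, the adjusted p of Nes ranged from 0.0852 to 0.191.

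Pax6 and Zic1 were the 2 genes below the filter whose counting intervals did not meet between the genotypes. Pax6, a paired box factor of the eye field, forebrain and spinal cord (chr2:105668900-105697364, plus strand), had 0.10 and 0.164 FPKM in WT against 0.565 and 0.544 FPKM in promoter KO. The promoter KO samples lay close together and above both WT samples. Their counting intervals began at 0.421 and 0.403 FPKM, above the upper ends of 0.186 and 0.263 FPKM in WT. The mean was 4.19 times as high in promoter KO, at about 11 and 15 fragments in WT against 52 and 47 in promoter KO. Since Pax6 has 26 annotated transcripts, these fragment numbers are rougher than those of Sox1.

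Zic1, a zinc finger factor of the dorsal neural plate and the somites (chr9:91358058-91365810, minus strand), had 0.319 and 0.144 FPKM in WT against 0.814 and 0.626 FPKM in promoter KO. WT 1 was more than 2-fold above WT 2, and the promoter KO samples were above both. The ratio of the means was 3.11. The interval of promoter KO 2 began at 0.489 FPKM, above the end of that of WT 1 at 0.426 FPKM. An exon of Zic4, on the opposite strand, overlaps Zic1. Since no source used here states whether strand was used in counting, reads of these genes cannot be told apart. Zic4 was listed at 0.0413 and 0.0232 FPKM in WT and 0.0352 and 0 in promoter KO.

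Hes5, the Notch target that keeps neural progenitors undifferentiated (chr4:154960923-154962371, plus strand), had 0.422 and 0.301 FPKM in WT against 0.702 and 0.952 FPKM in promoter KO. In each promoter KO sample Hes5 was above both WT samples. The mean was 2.29 times as high, but the counting intervals of WT 1 (up to 0.758 FPKM) and promoter KO 1 (from 0.405 FPKM) overlapped, at about 11 and 16 fragments. Hes5 shares exonic bases with the antisense gene Gm20421, which was not analysed here.

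Six3, a factor of the anterior neural plate and eye field (chr17:85613608-85629302, plus strand), went the other way. Six3 had 0.404 and 0.312 FPKM in WT against 0.118 and 0.184 FPKM in promoter KO. Each promoter KO sample was below both WT samples, and the mean was 2.37 times as high in WT as in promoter KO. The intervals of WT 2 (from 0.199 FPKM) and promoter KO 2 (up to 0.316 FPKM) overlapped, at about 24 and 13 fragments. Six3os1, an antisense gene that overlaps an exon of Six3, was lower in both promoter KO samples as well, at 0.0906 and 0.0954 FPKM in WT against 0.0177 and 0.0348 in promoter KO, and its reads cannot be told apart from those of Six3 without strand.

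Hesx1, a homeobox factor of the anterior neural plate that is also expressed in anterior visceral endoderm (chr14:26994416-27002329, plus strand), had 0.0884 and 0.0990 FPKM in WT against 0.303 and 0.0549 FPKM in promoter KO. The groups overlapped, and only promoter KO 1 stood above the rest, at about 6 fragments. Neurog2, the proneural factor (chr3:127633135-127635631, plus strand), had 0.0401 and 0 FPKM in WT against 0.0458 and 0.0494 FPKM in promoter KO. All 4 values stand for 2 fragments or fewer, so that no difference was detectable at this depth. For the 0 in WT 2 the upper end of the Poisson interval was 0.0829 FPKM, and no fold change is given for Neurog2.

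Over the 7 genes below the filter, both promoter KO samples were above both WT samples in 5 (Sox1, Pax6, Hes5, Zic1 and Neurog2) and below in 1 (Six3). The same was found for 23.1% and 15.7% of the 6274 genes with a value above 0 that did not pass the filter. Neurog2 had about 2 fragments in WT 1 and in each promoter KO sample, so that its place among the 5 rests on the library depths. In the 3 tested genes, 1 was higher (Sox3) and 2 were lower (Sox11 and Nes) without overlap, where 32.9% of all genes tested were higher and 32.4% were lower. When the means also had to differ 2-fold and the mean over the 4 samples had to reach 0.1 FPKM, a rule chosen after the values were seen, 4 of 6 genes were higher (Sox1, Pax6, Hes5 and Zic1) and 1 was lower (Six3), beside 15.0% and 10.4% of the 3118 genes below the filter that reached that mean. None of the 7 genes had an adjusted p below 0.05 when the filter was left out, although 5 of them had an unadjusted p below 0.05. In that setting limma called 0 of 18215 genes, with 1982 lower and 2077 higher at an unadjusted p below 0.05. An exact permutation test of 2 samples against 2 cannot give a two-sided p below 0.333.

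The size of these differences depended on the scale, not their direction. With a pseudocount of 0.1 in place of 1 and no filter, a setting chosen after the values were seen, the log2 fold changes were 1.26 for Sox1, 1.51 for Pax6, 1.35 for Zic1, 1.00 for Hes5 and -0.87 for Six3. Those of Sox3 and Nes, which have high expression, were 0.72 and -1.18. In that setting the adjusted p was between 0.144 and 0.687 for all 10 genes.

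**Figure D2:**
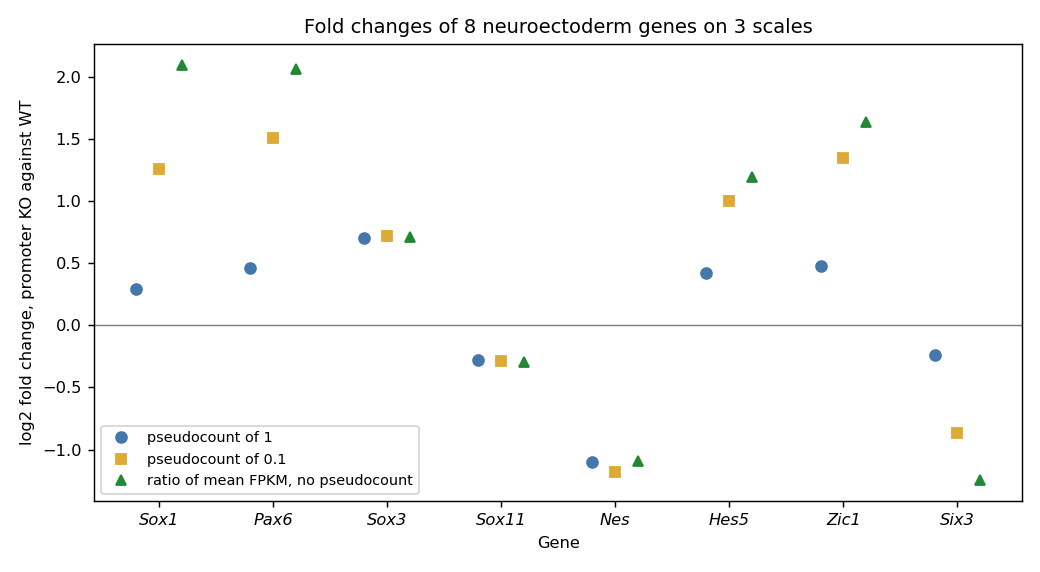
Log2 fold changes of promoter KO against WT (vertical axis) for 8 neuroectoderm genes on 3 scales, namely FPKM plus 1 (circles), FPKM plus 0.1 (squares) and the ratio of mean FPKM without a pseudocount (triangles). Sox1, Pax6, Hes5 and Zic1 are above 0 and Six3 is below 0 on all 3 scales, and their size grows as the pseudocount falls, while Sox3, Sox11 and Nes hardly move.

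The median log2 fold change was -0.28 over the 3 tested genes and 0.20 over all 10 genes without the filter, where the medians of all genes were 0.00 and 0.01. The sum over the 10 genes was 82.4 and 73.7 FPKM in WT against 82.4 and 85.9 FPKM in promoter KO, nearly all of it from Sox3, Sox11 and Nes.

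The sequence upstream of the start sites of Hes5, Pax6 and Nes is shown (RefSeq, GRCm38.p6, 5′ to 3′). Hes5 and the 3 motifs in capitals were chosen after the matches to 8 motifs in all windows had been seen, because Hes5 held matches to these 3, and Pax6 and Nes are shown beside it as a gene with higher and a gene with lower values in promoter KO. Of the 10 genes, 9 had at least 1 entry in the promoter table, which gave 10 windows of 250 bases before a start. Capitals mark matches, on either strand, to TGGGAA (the core bound by RBPJ, the DNA-binding partner of Notch), ACAATG (a core bound by Sox factors) and ATGCNAAT (an octamer bound by POU factors). The Hes5 window (chr4:154960673-154960922, plus strand) holds 153 bases of exons of the antisense gene Gm20421, the Pax6 window (chr2:105668646-105668895, plus strand) holds 0 exonic bases, and the Nes stretch (chr3:87970843-87971077, plus strand) ends before the first annotated exon.
Hes5: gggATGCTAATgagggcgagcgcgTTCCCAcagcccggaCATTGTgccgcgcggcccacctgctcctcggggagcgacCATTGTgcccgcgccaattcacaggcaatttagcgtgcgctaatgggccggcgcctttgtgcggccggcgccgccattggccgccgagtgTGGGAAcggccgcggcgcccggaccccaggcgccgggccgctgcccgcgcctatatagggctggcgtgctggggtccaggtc
Pax6: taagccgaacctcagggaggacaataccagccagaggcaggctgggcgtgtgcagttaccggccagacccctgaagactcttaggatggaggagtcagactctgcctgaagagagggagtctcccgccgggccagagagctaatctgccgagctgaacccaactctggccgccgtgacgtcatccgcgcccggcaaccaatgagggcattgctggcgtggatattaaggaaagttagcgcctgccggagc
Nes: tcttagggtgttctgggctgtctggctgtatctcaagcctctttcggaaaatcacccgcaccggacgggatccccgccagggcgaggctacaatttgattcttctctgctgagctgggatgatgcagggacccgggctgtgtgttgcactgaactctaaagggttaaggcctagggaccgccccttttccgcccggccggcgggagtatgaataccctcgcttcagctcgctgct

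The Hes5 window held 2 matches to TGGGAA, at 226 and 82 bases before the start, 2 to ACAATG and 1 to ATGCNAAT, and the shown stretches of Pax6 and Nes held none. Of all 32851 promoter windows of the same length, 21.6% held TGGGAA, 10.7% held ACAATG and 2.86% held ATGCNAAT. Of the 10 windows of the neuroectoderm genes, 2 held TGGGAA (Hes5 and Hesx1), and 1 each held ACAATG and ATGCNAAT (Hes5). CTTTGAT, a TCF/LEF core, and GGTGTGA, a T-box core, were in 0 of the 10 windows, against 3.21% and 3.33% of all windows. AGGTGTGA, a longer form of the T-box core that was searched first and contains the shorter one, was also in 0 of the 10, against 1.12% of all. CAGNTG (E-box) and CACNAG (N-box) were each in 2 of the 10, against 44.8% and 36.7% of all. The windows had a median of 58.4% G and C and 15.0 CpG dinucleotides, against 52.4% and 6.0 over all windows. Annotated exons covered 224 of the 250 bases of the Sox1 window and all 250 of a second Pax6 window. They covered 153 bases for Hes5, 44 for Six3, 42 for Zic1, 15 for Nes and 1 for Neurog2. For Sox11, Hesx1 and the shown Pax6 window the number was 0. The motif matches are descriptions of letters in a window.

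The other genes of early neural development also moved in both directions. Beside the counts of calls in each list below, 1.68% of all genes tested were called higher and 1.89% lower. At an unadjusted p below 0.05 in limma, 15.0% of all genes tested were higher and 15.6% lower. Of 9 neural competence genes, all of which were tested, 1 rose, 1 fell and 7 were not called. One of the latter, Zfp521, reached 1 FPKM in the WT samples only. Pou3f1, a POU factor that promotes the passage from epiblast to neural fate, had 44.6 and 40.2 FPKM in WT against 88.9 and 87.0 in promoter KO. On the log2 scale the change was 1.04 (standard error 0.09), and the adjusted p was 0.0208 in limma. Zic2, a zinc finger factor of the epiblast and neural plate, had 140 and 124 FPKM in WT against 86.5 and 86.7 in promoter KO. The log2 fold change was -0.60 (standard error 0.09), and the adjusted p was 0.0389 in limma. The promoter KO samples did not overlap with the WT samples in either gene. The median log2 fold change of the list was 0.01, and 0.12 over the 8 genes other than Zfp521.

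Of 5 further SoxB and SoxC genes, beside Sox1, Sox3 and Sox11, 0 of the 4 tested were called in limma, where 2 genes were higher at an unadjusted p below 0.05 and 1 was lower, and Sox21 was not tested. The median log2 fold change was 0.24. Sox14, 1 of the 2 higher genes, passed the filter only through promoter KO, where it was higher, and the median of the 3 others was -0.11. Sox2, a SoxB1 factor like Sox3 and also a pluripotency factor, had 88.4 and 102 FPKM in WT against 200.5 and 129 in promoter KO. The promoter KO samples were both higher, but they differed from each other by more than the gap from WT 2 to promoter KO 2, and the log2 fold change of 0.76 had an adjusted p of 0.0801 in limma. It was 0.44 without promoter KO 1 (adjusted p = 0.212) and 1.07 without promoter KO 2 (adjusted p = 0.0359). Sox4, a SoxC factor like Sox11, had 69.3 and 63.6 FPKM in WT against 51.1 and 53.9 in promoter KO, with a log2 fold change of -0.33 and an adjusted p of 0.0769 in limma. Sox11 and Sox4 thus both had lower values in promoter KO, and neither was called.

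Of 13 proneural and neuronal genes, 5 were tested, of which 2 rose, 0 fell and 3 were not called (median log2 fold change 0.24). Neurod1, a proneural factor that Neurog genes activate, had 0.863 and 0.554 FPKM in WT against 3.89 and 2.99 in promoter KO. On the log2 scale the change was 1.38 (standard error 0.18), and the adjusted p was 0.0371 in limma. Because both WT values were below 1 FPKM, Neurod1 passed the filter only through promoter KO, the genotype in which it was high. With a filter on the mean of all 4 samples (0.5 FPKM) its adjusted p was 0.0441, and without a filter 0.142. Among the 4 other tested genes of the list 1 rose, with a median of 0.03. Tubb3, the neuronal beta tubulin, had 14.5 and 12.3 FPKM in WT against 23.2 and 26.6 in promoter KO, with a log2 fold change of 0.85 and an adjusted p of 0.0393 in limma. Both genes were higher in both promoter KO samples. Neurod4 was listed at 0 in all 4 samples, and Stmn2, the most abundant gene of the list, was not called.

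Of 9 genes of neural progenitor structure, 7 were tested, of which 0 rose, 1 fell and 6 were not called (median -0.43). Cdh2, which encodes N-cadherin and is expressed in mesoderm as well as neural plate, had 30.4 and 44.4 FPKM in WT against 9.41 and 13.8 in promoter KO. The log2 fold change was -1.61 (standard error 0.23), and the adjusted p was 0.0384 in limma. Like Nes, Cdh2 was lower in both promoter KO samples. Of 19 genes that mark regions of the neural plate, 16 did not pass the filter and 0 of the 3 tested were called in limma, with 1 gene lower and 1 higher at an unadjusted p below 0.05 and a median of 0.28. The list's most abundant genes were Gbx2, with 3.51 and 6.43 FPKM in WT against 5.81 and 6.27 in promoter KO and overlapping groups, and Irx3, with 4.42 and 7.45 FPKM in WT against 2.12 and 1.37 in promoter KO and an adjusted p of 0.0523 in limma.

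**Figure D3:**
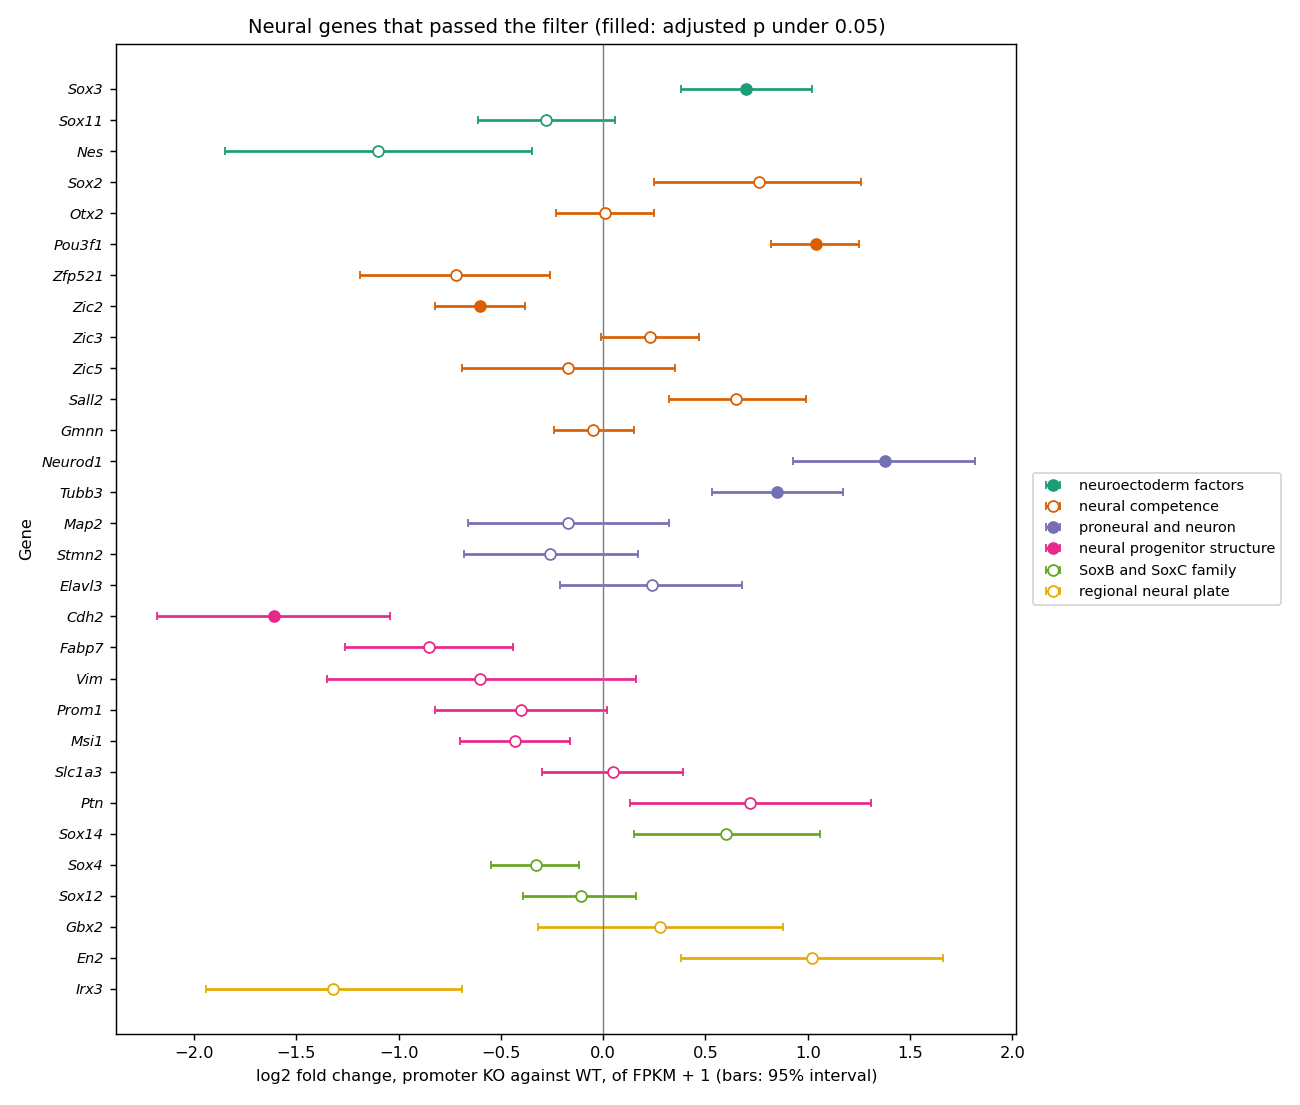
Log2 fold changes (horizontal axis, promoter KO against WT, of FPKM + 1) with 95% intervals for each neural gene that passed the filter, coloured by list; filled points had an adjusted p below 0.05 in limma. Sox3, Pou3f1, Neurod1 and Tubb3 are filled on the right of 0, and Zic2 and Cdh2 on the left.

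Hes1 and Nrarp, which like Hes5 are Notch targets, fell in promoter KO. Of 13 genes of the Notch pathway, 12 were tested, of which 0 rose, 2 fell and 10 were not called, with fold changes below 0 in 10 of the 12, where 49.5% of all genes tested were below 0, and a median of -0.57. Jag2 and Rbpj were higher in both promoter KO samples, and Notch2, Dll1 and Lfng overlapped between the genotypes. Hes1, a Notch target that is also expressed in mesoderm, had 48.7 and 58.7 FPKM in WT against 22.8 and 28.8 in promoter KO. Its log2 fold change of -1.03 had an adjusted p of 0.0377 in limma. Nrarp, another target, had 15.4 and 17.0 FPKM in WT against 6.06 and 8.52 in promoter KO. Its log2 fold change of -1.07 had an adjusted p of 0.0422 in limma. The difference between Hes5 and these genes was not tested.

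Of 9 genes for secreted neural inducers, 8 were tested, of which 0 rose, 3 fell and 5 were not called (median -0.44). Cer1, an antagonist of Nodal, BMP and Wnt, had 36.6 and 26.1 FPKM in WT against 7.42 and 8.93 in promoter KO, with a log2 fold change of -1.80 and an adjusted p of 0.0233 in limma. The log2 fold changes of the Wnt antagonist Dkk1 and the activin antagonist Fst were -1.09 and -0.91. Of 8 signals that restrain neural fate, all tested, 1 rose, 0 fell and 7 were not called (median -0.30). Nodal had 75.1 and 62.3 FPKM in WT against 117 and 112 in promoter KO, with a log2 fold change of 0.74 and an adjusted p of 0.0389 in limma. Of 11 genes of surface ectoderm and neural crest, 6 were tested, of which 0 rose, 2 fell and 4 were not called (median -0.75), and the log2 fold changes of the called genes Msx1 and Tfap2c were -1.78 and -1.48. Their adjusted p in limma was 0.0467 and 0.0422, and of the 8 other settings with genotype as the only term Msx1 passed in 2 (0.0484 to 0.146) and Tfap2c in 4 (0.042 to 0.146).

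Markers of other cell types moved with the genotype as well, and their part in the differences of the neuroectoderm genes was not tested. All 12 extraembryonic endoderm genes had fold changes above 0 and 7 of them rose (median 1.30), with log2 fold changes of 2.76 for Lama1, 2.56 for Amn, 1.95 for Cubn, 1.83 for Col4a1, 1.70 for Ttr and 1.21 for Sparc. Of all genes tested, 49.5% had fold changes below 0 and 1.68% were called higher. Cubn, Sox7 and Apob passed the filter only through promoter KO, where they were higher, so that their place among the 12 was decided by the difference itself. Among the 9 others, 5 rose, with a median of 1.39. With a filter on the mean of all 4 samples (0.5 FPKM), Cubn and Sox7 were called (adjusted p = 0.0308 and 0.0441 in limma) and Apob was not. The sum of that list was 106 and 140 FPKM in WT against 249 and 309 FPKM in promoter KO, with Sparc the most abundant and none of its genes at 0 in all samples. Of 10 pluripotency genes, all tested, 1 rose, 0 fell and 9 were not called (median 0.73). The called gene, Utf1, had 262 and 297 FPKM in WT against 828 and 617 in promoter KO, with a log2 fold change of 1.35 and an adjusted p of 0.0275 in limma. The sum of the pluripotency list was 1951 and 1705 FPKM in WT against 2628 and 2370 in promoter KO, with Pou5f1 the most abundant and none of its genes at 0 in all samples. Of 6 primed epiblast genes, all tested, 0 rose, 1 fell (Tdgf1, log2 fold change -0.55) and 5 were not called (median -0.06).

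**Figure D4:**
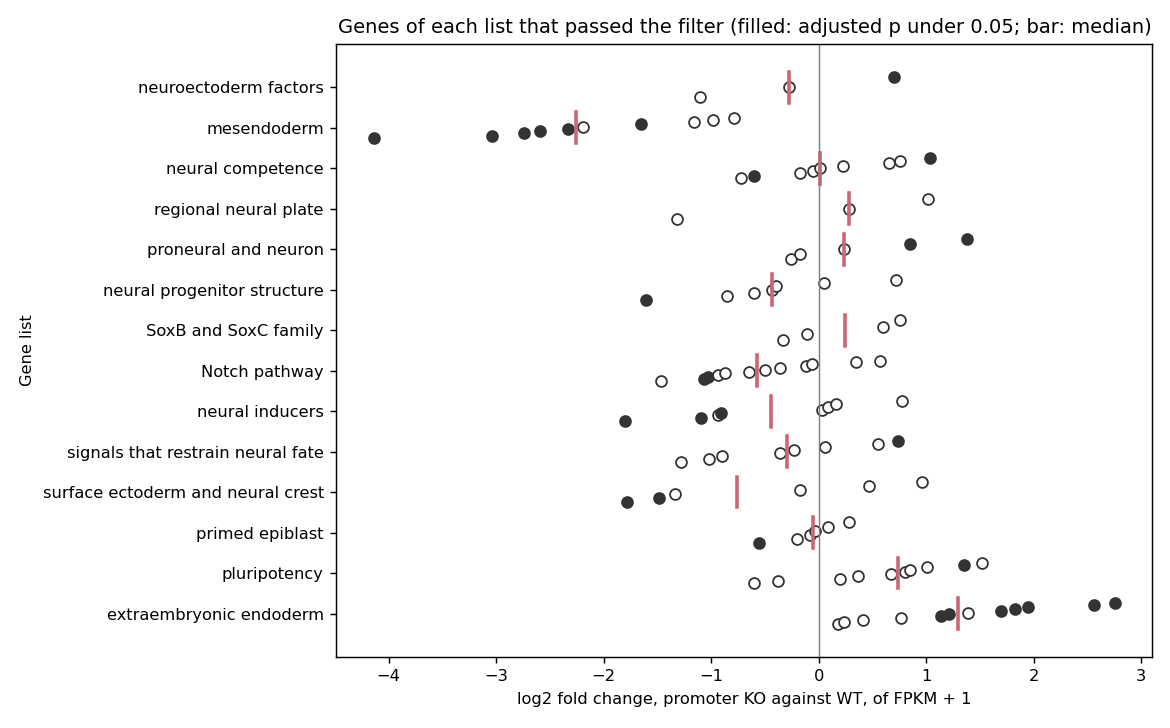
Log2 fold changes (horizontal axis, promoter KO against WT, of FPKM + 1) of the tested genes of each list (vertical axis), with the median as a red bar; filled points had an adjusted p below 0.05 in limma. The median is -2.26 in the mesendoderm list and 1.30 in extraembryonic endoderm, while the neuroectoderm and other neural lists lie on both sides of 0.

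Leaving out WT 2 or promoter KO 1 removed all calls. Of the 29 called genes named here, Sox3 included, 0 were called without WT 2 or without promoter KO 1, where limma called 0 genes in either direction (976 lower and 899 higher at an unadjusted p below 0.05 without WT 2, and 1043 and 966 without promoter KO 1). In both settings the log2 fold changes of all 29 were within 1.5 times of those with all samples, and 0 of the 29 changed sign in any setting. The calls of Zic2, Tubb3 and Dkk1, like that of Sox3, were lost whichever sample was left out.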

How the data were processed

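The authors deposited 1 table of FPKM values per sample, for EBs of day 3, with 2 WT and 2 promoter KO samples. The submitters' processing notes name HISAT2 2.1.0, Cufflinks, Cuffnorm and the mm10 build, whereas the methods of the study name TopHat, Cufflinks and GENCODE annotation and call the unit RPKM. Which aligner made these values could not be settled, and a strand setting is not given in the sources used here. Values were compared as log2(FPKM + 1) with limma 3.58.1 in R 4.3.3 (eBayes with an intensity trend, genotype as the only term), leaving out genes that reached 1 FPKM in fewer than 2 samples, with Benjamini-Hochberg adjustment. The fit was tested on simulated data. Depth was estimated from genes with 1 annotated transcript longer than 600 bases in GENCODE M21 (GRCm38), as the depth between 10000000 and 35000000 fragments that put low values nearest to whole fragments. A fragment length of 250 bases scored best of the 8 tried (0 to 350), and the share of whole values comes from the same values that set the depth. Symbols were used as given, and 4 rows with a repeated symbol were kept apart. BLAST 2.17.0 found 0 neuroectoderm genes with at least 95% identity over 200 bases to a transcript of another gene. Sox1 also shares exonic bases with Gm25239 and Six3 with Gm28528, which were not analysed here. Python 3.11.15 was used for tables and figures.

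The 10 genes and the 13 other lists were chosen with earlier results of these data known, and 3 genes stand in more than 1 of the other lists. All 10 genes are named. Of each other list, every called gene is named (the 6 with the largest fold change where more were called), or else the 2 genes with the highest mean FPKM. The alternatives were a pseudocount of 0.1, no filter, filters at a mean of 0.5 and 5 FPKM, limma without trend, median centring, quantile normalization, a replicate block and each sample left out.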

Additional observations from a re-analysis of the deposited data

How the results depend on the processing

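The direction of the 3 tested neuroectoderm genes was the same in every setting run, but the number of calls was not. Genes called lower and higher numbered 226 and 201 in the fit reported. Without a filter they numbered 0 and 0 (also with a pseudocount of 0.1, a setting chosen after seeing the data). With a pseudocount of 0.1 and the filter kept they numbered 174 and 174, and with quantile normalization 169 and 165. They numbered 89 and 113 with a filter at a mean of 0.5 FPKM, and 108 and 95 with a filter at a mean of 5 FPKM. Without trend they numbered 27 and 55, and with median centring 126 and 157. More genes were called higher than lower with the filter at 0.5 FPKM, without trend and with median centring. The cause was not tested. With samples left out, where limma takes the lone sample to vary like the other genotype, the calls ranged from 0 to 248 lower and from 0 to 238 higher, with 0 in both directions without WT 2 or without promoter KO 1.

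The 1 neuroectoderm gene called higher, Sox3, was lost (0 called) with a pseudocount of 0.1, in each filter setting, without trend, with both normalizations and with any sample left out (0 to 0). The log2 fold change of Nes ranged from -1.60 to -0.61 with a sample left out. With no filter and a pseudocount of 0.1, 4 of the 10 neuroectoderm genes passed the fold rule in the higher direction and 1 in the lower. Of all 18215 genes in that setting, 565 passed it in the higher direction and 502 in the lower. The median over the neuroectoderm genes was 0.20 without a filter and 0.07 with a filter at 0.5 FPKM, both of which take in other genes. It was 0.54 over the same 10 genes with no filter and a pseudocount of 0.1. The log2 fold change of Gbx2, not called, ranged from -0.08 to 0.64 with a sample left out. The ratio of means was not used for Neurog2, which rested on 2 fragments or fewer in every sample.

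With a replicate block, 667 genes were called lower and 535 higher, 1 neuroectoderm gene was called lower (Nes, adjusted p = 0.0355) and 1 higher (Sox3, adjusted p = 0.0185), and all 29 called genes named in the text were called. Irx3, not called in the fit reported, was called with the block as well (adjusted p = 0.0418 in limma). Over all genes tested, the deviations of samples with the same number had a correlation of 0.0348. A correlation over all genes cannot show whether samples were prepared in pairs. The sample titles give only a number, so that a pairing is neither stated nor excluded. With about 20500000 to 25400000 fragments, levels under 0.1 FPKM rest on few fragments, and 2 samples per genotype limit every test.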

Other observations

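Some genes outside the naming rule, chosen after their values were seen, are given for both directions. Of the 19 regional neural plate genes, 5 were higher and 4 lower in both promoter KO samples than in either WT sample, and 10 overlapped. Over all genes tested, 32.9% were higher and 32.4% lower without overlap, and over those below the filter with a value above 0, 23.1% and 15.7%, so that these counts are near the shares of all genes. Of those below the filter, Pax2, a factor of the midbrain-hindbrain region and the kidney, had 0.0712 and 0.0481 FPKM in WT against 0.195 and 0.175 in promoter KO. Lhx2, Pax3 and Fezf1 were also higher. Nkx6-1, a ventral neural tube factor, had 0.255 and 0.573 FPKM in WT against 0.0873 and 0.189 in promoter KO. Pax7, a dorsal neural tube factor, had 0.118 and 0.0997 FPKM in WT against 0.0336 and 0.0241 in promoter KO, and Dbx1 was also lower. En2, which marks the midbrain-hindbrain region and passed the filter, had 2.88 and 1.49 FPKM in WT against 6.32 and 4.43 in promoter KO and was not called (adjusted p = 0.0732 in limma). Of the 9 neural progenitor structure genes, 2 were higher and 4 lower without overlap beside the same 32.9% and 32.4% of all genes tested (7 of the 9 were tested). Hes3, below the filter, had 0.0999 and 0.0280 FPKM in WT against 0.541 and 0.339 in promoter KO. Fabp7, a radial glia gene that passed the filter, had 3.79 and 3.63 FPKM in WT against 1.92 and 1.34 in promoter KO and was not called either (adjusted p = 0.0530 in limma).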
